A study of Mus musculus with 108 samples.

Results

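The genes described here are 9 mouse genes of peroxisomal beta-oxidation: the acyl-CoA oxidase Acox2, the bifunctional enzymes Ehhadh and Hsd17b4, the thiolases Acaa1a and Acaa1b, the auxiliary enzymes Decr2 and Ech1, and the transporters Abcd2 and Abcd3. They were taken by gene symbol from the annotation of the array platform, with every probe that carried a value. This gave 15 probes of the 41096 on the array that are not controls, and 9 of the 15129 genes with a value on some array. Liver RNA of ovariectomized female C57BL/6 mice was hybridised to 108 Agilent arrays in a single colour (Cy3). In the Wy-14643 arm, mice were gavaged with Wy-14643 at 300 mg/kg or with its sesame oil vehicle, and in the clofibrate arm with clofibrate at 300 mg/kg or with sesame oil. Each arm was sampled at 2 h, 4 h, 8 h, 12 h, 18 h and 24 h after a single dose, and after 1 day, 4 days and 14 days of daily dosing, with 3 arrays for each treated group and 3 for its vehicle group at the same time, 36 groups in all. All animals, vehicle animals included, lacked ovaries, so the groups describe female liver without ovarian hormones. The series describes its 3 replicates as biological, but the labels do not say whether the vehicle livers of both arms came from the same mice.

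Beta-oxidation in peroxisomes shortens fatty acids that mitochondria handle poorly, such as very long, branched and dicarboxylic chains, and the side chain of bile acid precursors. An ABC transporter of the ABCD family carries the acyl-CoA in, an acyl-CoA oxidase takes the first step and releases hydrogen peroxide, a bifunctional enzyme hydrates and dehydrogenates the product, and a thiolase cuts off acetyl-CoA. In rodent liver, ligands of the nuclear receptor PPAR alpha, among them clofibrate and Wy-14643, are known to increase both the number of peroxisomes and the RNA of many of these enzymes.

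Values are log2 signals scaled so that every array has the same 75th percentile, and a difference is treated minus vehicle of the same arm and time, with its SE from limma. A probe was called at an adjusted p under 0.05 (limma, Benjamini-Hochberg over all probes tested). Precision is limited by the 3 arrays of a group. Arrays carried values for 15750 to 22227 probes, and their brightest probes were tied at a ceiling that lay between 15.63 and 16.51 before scaling. In the clofibrate arm, vehicle replicate 1 at 14 days was nearly identical to vehicle replicate 1 at 4 days (Pearson correlation over probes 0.9999814, next highest of any pair 0.995318), so one of these groups may hold only 2 livers of its own. Vehicle replicate 3 at 1 day stood apart in both arms, and clofibrate-treated replicate 1 at 4 h correlated least with its own group (0.923). Albumin, the defining hepatocyte product, was at the ceiling on all 108 arrays, and muscle and fat markers (Ckm, Acta1, Lep) were empty on most arrays and not testable. For the mean over 9 times, all 6 Kupffer cell markers were lower in Wy-14643 livers, and none was called in clofibrate livers. Of all probes tested, 34.9% were lower with Wy-14643 and 1.92% with clofibrate. Lower with Wy-14643 were also 2 of 2 cholangiocyte, 2 of 3 stellate, 1 of 4 endothelial and 0 of 1 lymphocyte markers tested. Of the 5 hepatocyte markers with values on all arrays only Ttr was never saturated, and it was lower in Wy-14643 livers (-0.70 ± 0.11, limma, adjusted p = 6.83e-07) and not called in clofibrate livers (-0.06 ± 0.10). Apoa1, Asgr1 and Tat were saturated on 53, 48 and 45 of the 54 arrays of the Wy-14643 arm, so their differences are not read. The summed level of the 5 hepatocyte markers lay at 17.69 to 18.18 (log2) in Wy-14643 livers and 17.79 to 18.59 in their vehicle livers, which reflects the ceiling of each array, and that of the 6 Kupffer markers at 15.08 to 16.21 and 15.07 to 16.84. The part of these shifts in the results below was not tested, and in whole liver a change in cell share and a change of RNA per cell cannot be told apart.

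The signal of these enzymes was so strong that the scanner ceiling hid much of it. One Acaa1a probe (A_51_P327075) was saturated on all 54 treated and all 54 vehicle arrays and could not be compared at all. The Acaa1b probe was saturated on 54 treated and 50 vehicle arrays, and a second Acaa1a probe (A_52_P423183) on 54 and 31. Ehhadh reached the ceiling on 52 treated but on 3 vehicle arrays, and the Acaa1a probe A_52_P155990 on 39 and 4. Hsd17b4 was saturated on 49 treated and 16 vehicle arrays, and Ech1 on 17 and 2. The probes of Acox2, Decr2 and Abcd2 never reached the ceiling. Among the Abcd3 probes, A_52_P394395 was saturated on 51 treated and 33 vehicle arrays, while A_51_P333526 and A_52_P66728 stayed below the ceiling throughout. Where all treated arrays of a comparison were saturated and no vehicle array was, the fold change is a lower bound and is given as "at least". The spread within a saturated group is that of the array ceilings after scaling. The SEs and p-values of such probes therefore do not fully measure the spread of the transcript between livers.

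**Figure D1:**
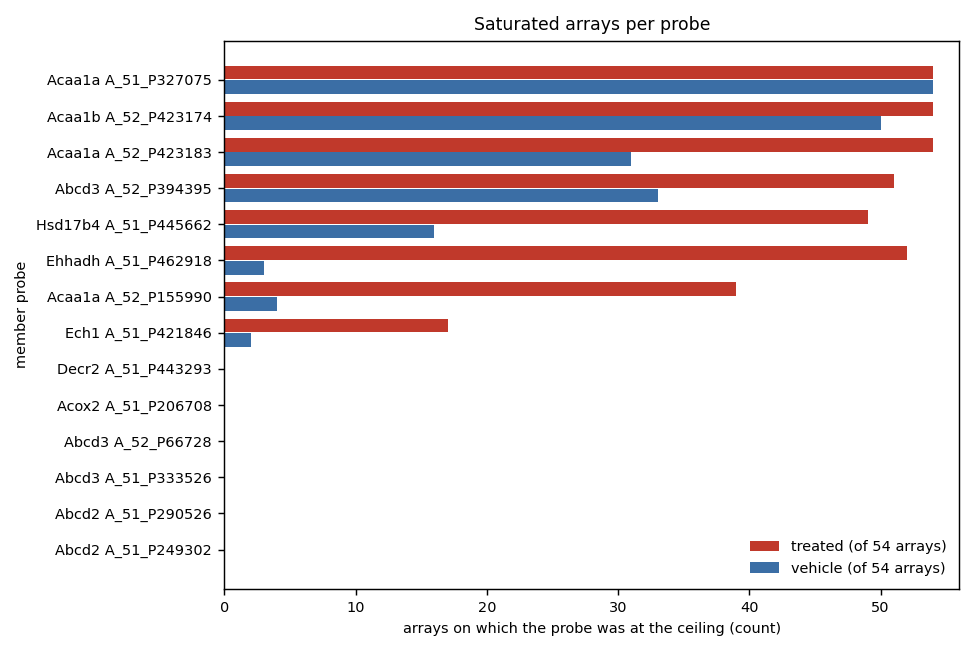
Number of saturated arrays for each member probe with a value on at least 99 arrays, of 54 treated arrays (upper bar) and 54 vehicle arrays (lower bar) with both compounds and all times together. Ehhadh has 52 treated against 3 vehicle arrays at the ceiling, while an Acaa1a probe is saturated on all arrays of both kinds.

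Most of the 9 genes had a probe that was higher in Wy-14643 livers, and a smaller number had one in clofibrate livers. Averaged over the 9 times, 9 of the 13 member probes tested were higher in Wy-14643 livers than in vehicle livers and 0 were lower, where 20.1% of all 16935 probes tested were higher and 34.9% lower. In clofibrate livers 6 of 12 were higher and 0 lower, where 3.14% of all 12151 were higher and 1.92% lower. Of all calls, 36.5% were higher for Wy-14643 and 62.1% for clofibrate, which moved to 70.8% and 86.9% with the values as deposited, and to 41.5% and 24.4% when all listed probes set the scale. At single times 0 member probes were lower at an unadjusted p under 0.05 (limma) in either arm, where 7.31% of all probe and time comparisons were called lower for Wy-14643 and 0.509% for clofibrate. By gene, 8 of 9 had at least 1 probe higher for Wy-14643 and 5 of 9 for clofibrate. The share over all genes was not computed, and a gene with more probes has more tests that can be called. The median difference over the tested member probes was 0.36 for Wy-14643 and 0.24 for clofibrate, against medians of -0.07 and -0.01 over all probes tested. The means of Acaa1b, Abcd3 A_52_P394395 and Acaa1a A_52_P423183 include times at which both groups were saturated, entered at their ceiling values.

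At single times, in Wy-14643 livers 2 member probes were higher at 2 h (1.92% of all probes tested), 4 at 4 h (3.71%), 5 at 8 h (6.89%), 6 at 12 h (8.74%), 6 at 18 h (9.39%), 6 at 24 h (6.05%), 7 at 1 day (6.23%), 3 at 4 days (3.07%) and 7 at 14 days (7.47%). In clofibrate livers 1 was higher at 2 h (0.293%), 2 at 4 h (1.39%), 3 at 8 h (6.35%), 2 at 12 h (0.796%), 2 at 18 h (0.148%), 1 at 24 h (0.0634%) and 2 at 1 day (0.127%). At 4 days (0.138%) and 14 days (0.0306%) limma called 0 of them, and 0 and 1 had an unadjusted p under 0.05. Of all probes tested, 1136 of 16613 at 4 days and 275 of 16320 at 14 days had such a p, in either direction. Treated and vehicle arrays of the same replicate number moved together in 16 of the 18 comparisons, and with the number as a block, 20 probe and time comparisons were called for clofibrate instead of 13, and 55 instead of 46 for Wy-14643. The share over all probes with the block was not computed, so a gain particular to the members was not tested.

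The upstream sequences of 3 genes are shown because their responses, given below, span the range seen: Ehhadh with a large difference under both compounds, Abcd3 with a larger one under Wy-14643, and Acox2 with a small one. PPAR alpha is known to bind direct repeats of the half-site AGGTCA with 1 base between the copies. Each line holds the 250 bases before the RefSeq transcript start (GRCm38.p6, minus strand, written 5′ to 3′ along the gene). Capitals mark matches to AGGNCA on either strand.
Ehhadh, chr16:21787835-21788084: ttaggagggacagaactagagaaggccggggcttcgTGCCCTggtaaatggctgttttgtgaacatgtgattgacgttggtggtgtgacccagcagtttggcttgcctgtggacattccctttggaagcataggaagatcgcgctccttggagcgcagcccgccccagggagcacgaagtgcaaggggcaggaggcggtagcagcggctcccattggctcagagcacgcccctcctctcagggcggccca
Abcd3, chr3:121815303-121815552: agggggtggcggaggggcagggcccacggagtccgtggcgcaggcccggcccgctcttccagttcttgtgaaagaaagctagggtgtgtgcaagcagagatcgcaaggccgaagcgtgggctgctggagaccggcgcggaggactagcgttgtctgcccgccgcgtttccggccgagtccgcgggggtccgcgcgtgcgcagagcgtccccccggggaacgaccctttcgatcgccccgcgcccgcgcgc
Acox2, chr14:8259020-8259269: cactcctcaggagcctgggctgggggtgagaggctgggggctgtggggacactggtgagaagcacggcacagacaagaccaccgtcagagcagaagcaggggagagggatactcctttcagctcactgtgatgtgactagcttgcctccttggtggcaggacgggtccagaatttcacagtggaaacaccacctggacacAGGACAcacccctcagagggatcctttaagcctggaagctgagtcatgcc
RefSeq windows were found for 7 of the 8 genes looked up, 9 windows in all, with Hsd17b4 not among the genes looked up. AGGTCA was in 0 of the 9 windows, on either strand, and in 14% of the 32851 windows of all genes. Its looser form AGGNCA, which includes AGGTCA, was in 6 of 9 windows and in 51.3% of all. A direct repeat of AGGNCA with 1 base between was in 0 of 9 and in 0.338% of all. The GC content of the printed windows was 60.4%, 72% and 58.8% in the order printed, against a median of 52.4% over all windows.

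Acox2 encodes an oxidase for bile acid intermediates, and its difference was small. At 14 days it lay at 15.13, 14.76 and 14.73 in Wy-14643 livers, against 14.47, 13.96 and 14.18 in vehicle livers. All 3 treated arrays lay above all vehicle arrays, by a difference of 0.67 ± 0.21 (SE, n = 3 each, limma, adjusted p = 0.0323), the only time called. This call was lost in 5 settings that each left out 1 replicate. The differences at 18 h (0.57 ± 0.21) and 24 h (0.51 ± 0.21) also had no overlap between groups but missed the threshold without the block (adjusted p = 0.0557 and 0.0951, with the block 0.007 and 0.0147). At 12 h the groups overlapped, and the difference of 0.43 ± 0.21 was called with the block only (adjusted p = 0.181 and 0.0398). Averaged over times, Acox2 was 1.25-fold higher in Wy-14643 livers (0.33 ± 0.07, adjusted p = 0.00017). In clofibrate livers the mean difference was 0.20 ± 0.07 (adjusted p = 0.088, with the block 0.051), and no single time was called, the highest difference being 0.51 ± 0.21 at 12 h.

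Ehhadh, the L-bifunctional enzyme, was at the scanner ceiling in nearly every treated liver from 2 h on. At 2 h it read 15.94, 16.05 and 16.00 in Wy-14643 livers, all at the ceiling, against 14.14, 14.51 and 14.36 in vehicle livers, so it was at least 3.16-fold higher (1.66 ± 0.33, limma, adjusted p = 0.00114). In clofibrate livers at 2 h it read 16.17, 15.90 and 16.11, of which 2 were at the ceiling, against 14.16, 13.84 and 14.26 (1.98 ± 0.36, adjusted p = 0.00193). The groups did not overlap in either arm. All 27 Wy-14643 arrays were saturated and 2 of their 27 vehicle arrays, and in the clofibrate arm 25 treated and 1 vehicle array. Ehhadh was called at 8 of 9 times for Wy-14643 and at 7 of 9 for clofibrate, and all 3 treated arrays lay above the vehicle arrays at each of these times. The clofibrate calls at 2 h, 4 h and 24 h were lost in 2, 2 and 4 settings that each left out 1 replicate. The Wy-14643 call at 4 h was lost in 1 of them.

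At 4 days the Ehhadh difference could not be measured, because all treated arrays were saturated in both arms, as were 2 of 3 vehicle arrays in the Wy-14643 arm and 1 of 3 in the clofibrate arm. Vehicle livers read 16.14, 15.73 and 15.75 in the Wy-14643 arm and 15.84, 15.96 and 15.89 in the clofibrate arm, and the differences as computed were 0.10 ± 0.33 and 0.15 ± 0.36. At 14 days in the clofibrate arm the difference was 1.08 ± 0.36 and was not called, with treated livers at 15.77, 15.86 and 16.05 and vehicle livers at 14.33 and 14.35 beside the array nearly identical to one of 4 days, at 15.77. The largest differences, 2.51 ± 0.33 for Wy-14643 and 2.74 ± 0.36 for clofibrate at 1 day, rested in part on vehicle replicate 3 there, which read 11.46 and 11.33. Without it, in a comparison added after the values were seen, they were 1.61 and 1.92 and both stayed called (limma, adjusted p = 4.16e-08 and 0.000178). Averaged over times the differences were 1.53 ± 0.11 for Wy-14643 (adjusted p = 1.03e-15) and 1.78 ± 0.12 for clofibrate (adjusted p = 8.66e-15), both held down by the ceiling.

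Hsd17b4, the D-bifunctional enzyme, which also serves branched chains and bile acid intermediates, was already near the ceiling in vehicle livers. Its vehicle arrays had a median of 15.80 in the Wy-14643 arm and 15.74 in the clofibrate arm, and its treated arrays 15.97 and 15.87. No single time was called. The mean difference was 0.14 ± 0.04 for Wy-14643 (limma, adjusted p = 0.0078) and 0.20 ± 0.06 for clofibrate (adjusted p = 0.0358), with 26 and 23 of the 27 treated arrays and 7 and 9 of the 27 vehicle arrays saturated. These calls were lost in 2 and 5 of the alternative settings, with adjusted p up to 0.118 and 0.255.

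Of the thiolases, which perform the last step, only 1 Acaa1a probe could be followed. Acaa1a and Acaa1b are closely related paralogs, and sharing of signal between their probes was not tested. At 2 h, before any of its arrays reached the ceiling, A_52_P155990 read 15.29, 15.40 and 15.67 in Wy-14643 livers, against 14.77, 14.54 and 14.64 in vehicle livers. The groups did not overlap, and Acaa1a was 1.75-fold higher (0.81 ± 0.21, limma, adjusted p = 0.0206). This call was lost in 4 settings that each left out 1 replicate. The probe was called at 8 of 9 times, all but 4 days, and reached at least 2.87-fold at 18 h (1.52 ± 0.21, adjusted p = 5.07e-07). At 1 day it was at least 2.92-fold (1.55 ± 0.21), or 1.07 without vehicle replicate 3.

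In clofibrate livers the same Acaa1a probe was called at 4 h (at least 2.65-fold, 1.41 ± 0.30, adjusted p = 0.0036), 12 h (at least 2.41-fold, 1.27 ± 0.30), 18 h (at least 2.83-fold, 1.50 ± 0.30, adjusted p = 0.00788) and 1 day (1.33 ± 0.30, adjusted p = 0.0386), and with the block also at 24 h (1.34 ± 0.30, adjusted p = 0.0691 and 0.0461). The call at 1 day was lost without vehicle replicate 3 (1.12, limma, adjusted p = 0.357). Those at 12 h and 18 h were each lost in 5 settings, without any 1 treated replicate or without vehicle replicate 2 or 3 at all times. Averaged over times the differences were 1.16 ± 0.07 for Wy-14643 (adjusted p = 5.62e-18) and 0.98 ± 0.10 for clofibrate (adjusted p = 5.86e-10), both limited by the ceiling, which 23 and 16 of the 27 treated arrays and 1 and 3 of the 27 vehicle arrays had reached. The probe A_52_P423183 had differences of -0.05 to 0.38 where tested in the Wy-14643 arm and 0.00 to 1.00 in the clofibrate arm, none of them called, with all 54 of its treated arrays at the ceiling. Acaa1b could be tested at 2 times for Wy-14643 and at 1 for clofibrate and was not called.

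**Figure D2:**
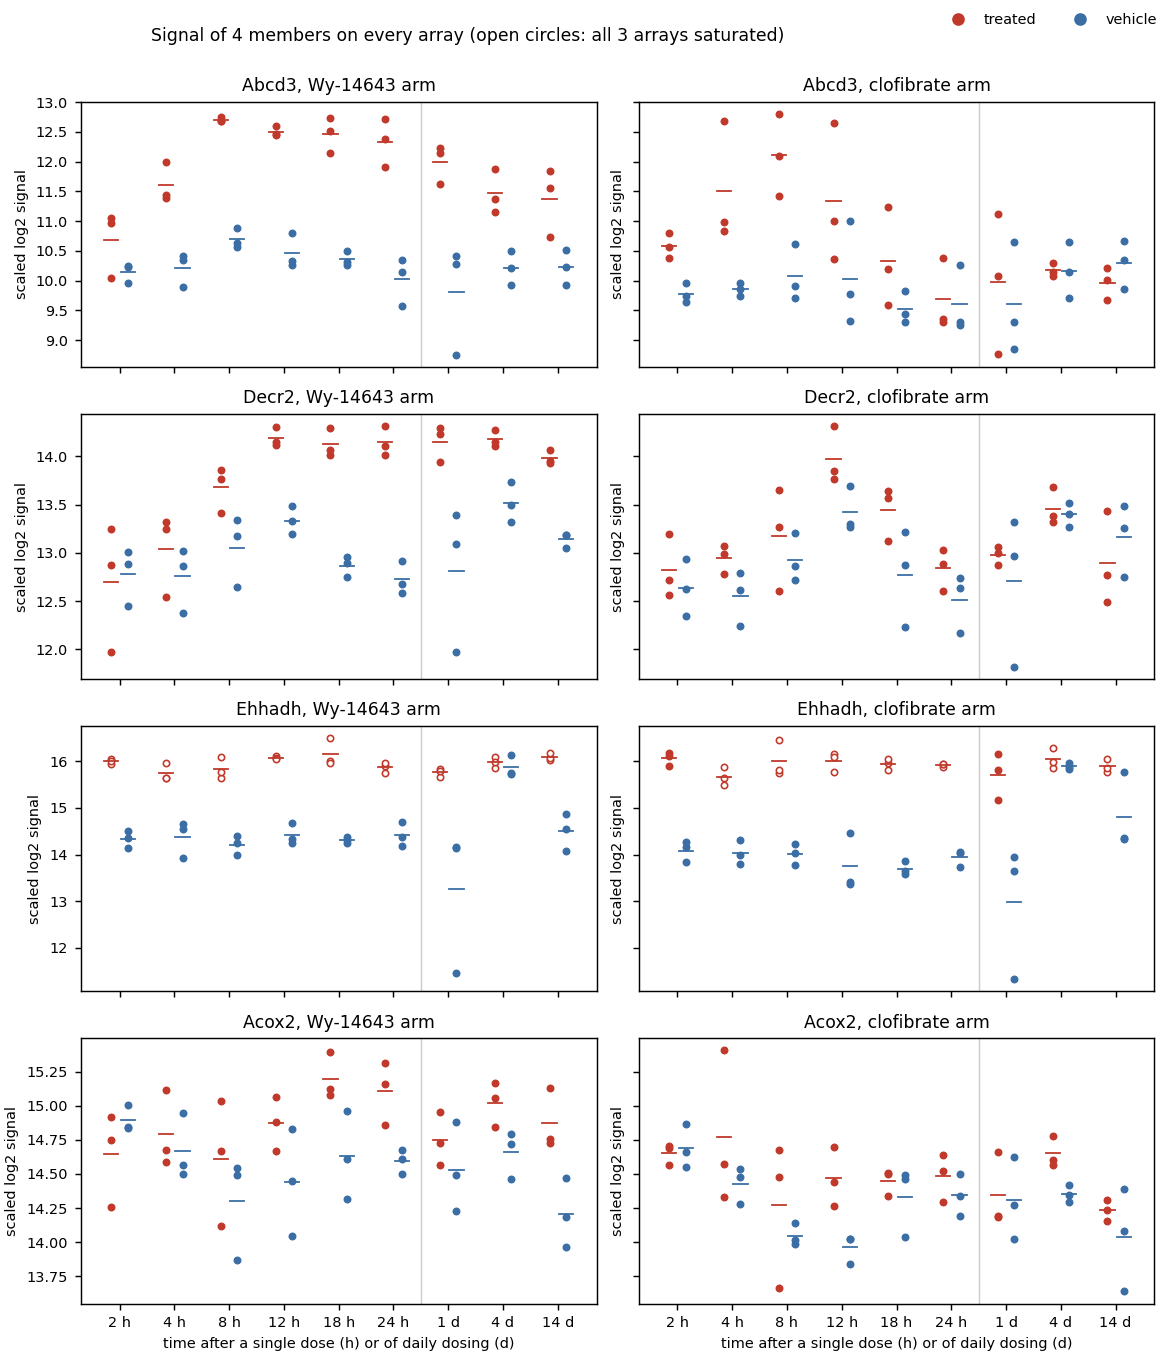
Scaled log2 signal of Abcd3 (probe A_51_P333526), Decr2, Ehhadh and Acox2 on every array, with treated arrays left of vehicle arrays at each time, bars at the group mean and open circles where all 3 arrays of a group were saturated. Treated Ehhadh arrays sit at the ceiling, while Abcd3 at 14 days lies at 10.73 to 11.85 in Wy-14643 livers and 9.93 to 10.52 in vehicle livers.

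The auxiliary enzymes, which let unsaturated chains enter the cycle, were first called in Wy-14643 livers at 8 h (Ech1) and 12 h (Decr2). Decr2, the peroxisomal dienoyl-CoA reductase, read 11.97, 12.87 and 13.25 in Wy-14643 livers at 2 h, against 12.45, 12.89 and 13.01 in vehicle livers, with overlapping groups (-0.09 ± 0.25). At 24 h it read 14.32, 14.01 and 14.11 in Wy-14643 livers, against 12.92, 12.67 and 12.59 in vehicle livers, with every treated array above every vehicle array. It was 2.68-fold higher there (1.42 ± 0.25, limma, adjusted p = 4.45e-05). Decr2 was called at 12 h, 18 h, 24 h, 1 day and 14 days, and with the block also at 8 h (0.63 ± 0.25, adjusted p = 0.0848 and 0.00136) and 4 days (0.66 ± 0.25, adjusted p = 0.102 and 0.00188). The calls at 12 h and 14 days were lost in 1 and 2 settings that each left out 1 replicate.

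In clofibrate livers Decr2 was called at no time. Its highest difference was 0.67 ± 0.28 at 18 h, with 13.12, 13.57 and 13.64 in clofibrate livers and 12.23, 13.22 and 12.87 in vehicle livers, where the groups overlapped. Its mean difference was 0.80 ± 0.08 for Wy-14643 (limma, adjusted p = 4.75e-11) and 0.27 ± 0.09 for clofibrate, which missed the threshold without the block (adjusted p = 0.0933) and passed with it (0.00916).

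Ech1, a dienoyl-CoA isomerase found in peroxisomes and mitochondria, was called at 7 of 9 times for Wy-14643, from 8 h (0.53 ± 0.16, limma, adjusted p = 0.0179) to 14 days. The calls at 8 h and 4 days were lost in 4 and 3 settings that each left out 1 replicate. At 14 days Ech1 read 16.02, 16.07 and 16.13 in Wy-14643 livers, with 2 at the ceiling, against 14.89, 15.06 and 14.69 in vehicle livers. This was its largest difference (1.20 ± 0.16, adjusted p = 2.24e-07), with no overlap. At 2 h the difference was -0.01 ± 0.16, and at 4 h it was 0.37 ± 0.16 (adjusted p = 0.163, with the block 0.0133). In clofibrate livers Ech1 was called for the mean (0.41 ± 0.08, adjusted p = 0.000474, against 0.70 ± 0.05 for Wy-14643) but at no single time without the block. With the block it was called at 12 h (0.64 ± 0.24, adjusted p = 0.348 and 0.0112) and 1 day (0.97 ± 0.24, adjusted p = 0.107 and 0.000502).

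Abcd3, also called PMP70, is a transporter of the peroxisomal membrane, and under Wy-14643 it had the highest mean difference among the member probes tested, in which Ehhadh and Acaa1a are bounded by the ceiling. At 8 h probe A_51_P333526 read 12.68, 12.75 and 12.68 in Wy-14643 livers, against 10.57, 10.64 and 10.89 in vehicle livers, and 12.80, 11.42 and 12.09 in clofibrate livers, against 10.61, 9.91 and 9.71 in theirs. Treated arrays lay above vehicle arrays in both arms, by 2.00 ± 0.30 (4.01-fold, limma, adjusted p = 3e-06) and 2.03 ± 0.52 (4.09-fold, adjusted p = 0.00768). At 24 h Wy-14643 livers read 12.72, 12.38 and 11.90, against 10.35, 10.15 and 9.58 in vehicle livers (2.31 ± 0.30, adjusted p = 1.99e-07), while clofibrate livers read 10.39, 9.31 and 9.36, against 10.26, 9.31 and 9.25 (0.08 ± 0.52).

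Under Wy-14643, Abcd3 was called at 8 of 9 times by both A_51_P333526 and A_52_P66728, all but 2 h, and treated and vehicle arrays were apart at 8 times by the first probe and at 9 by the second. By the first probe the calls at 4 days and 14 days were lost in 1 and 2 settings that each left out 1 replicate. With daily dosing the difference was 1.26 ± 0.30 at 4 days and 1.15 ± 0.30 at 14 days, where Wy-14643 livers read 11.85, 11.56 and 10.73 and vehicle livers 10.23, 10.52 and 9.93. At 1 day it was 2.18 ± 0.30, or 1.64 without vehicle replicate 3. The mean difference was 1.66 ± 0.10 by the first probe (limma, adjusted p = 4.81e-18) and 1.67 ± 0.09 by the second (1.87e-20), folds of 3.17 and 3.19.

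Under clofibrate, Abcd3 was called at 8 h by both probes, and with the block by both at 4 h and 12 h as well. The call at 8 h was lost in 3 settings that each left out 1 replicate by the first probe, and in 2 by the second. At 4 h the first probe differed by 1.65 ± 0.52 (limma, adjusted p = 0.0963, with the block 0.00119) and at 12 h by 1.31 ± 0.52 (0.416 and 0.0127). Replicate 1 was the high array of the treated livers at 4 h, at 12.67 beside 10.84 and 10.99, and at 12 h it was high in both kinds, at 12.66 in the treated and 11.00 in the vehicle liver. With daily dosing the clofibrate differences were 0.38 ± 0.52 at 1 day (0.0011 without vehicle replicate 3), 0.01 ± 0.52 at 4 days and -0.32 ± 0.52 at 14 days. The mean difference, 0.75 ± 0.17 (adjusted p = 0.00414), lost its call without treated replicate 1, vehicle replicate 2 or vehicle replicate 3, with values between 0.44 and 0.99 over all settings and adjusted p up to 0.121.

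The other Abcd3 probes gave no usable fold change. A_52_P394395, saturated on most arrays, had a mean difference of -0.02 ± 0.05 for Wy-14643 and 0.05 ± 0.08 for clofibrate. A_52_P536896 carried a value on 12 arrays, all from Wy-14643 livers, namely all 3 at 2 h, 4 h, 12 h and 24 h (6.45 to 7.94), and on 0 of 27 vehicle arrays of that arm and 0 of the 54 arrays of the clofibrate arm. The probe was empty in Wy-14643 livers at 8 h, 18 h, 1 day, 4 days and 14 days. With no vehicle value, no fold change was computed. The share of all probes with values in treated livers only was not computed either, so an effect cannot be read from this pattern.

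Abcd2, a related transporter for very long chains, was called at 1 time only. At 1 day A_51_P249302 read 10.03, 10.26 and 9.54 in Wy-14643 livers, against 9.55, 9.67 and 7.78 in vehicle livers. The groups overlapped, and the call (0.94 ± 0.31, limma, adjusted p = 0.0267) was lost without vehicle replicate 3 (0.33, adjusted p = 0.449). The second probe, A_51_P290526, had no overlap at 18 h, 24 h and 1 day (0.85, 0.90 and 0.98, each ± 0.37), with adjusted p of 0.111, 0.0939 and 0.0519, and 0.00366, 0.00292 and 0.00117 with the block. Its difference at 1 day was 0.49 without vehicle replicate 3 (limma, adjusted p = 0.415). Averaged over times Abcd2 differed by 0.24 ± 0.10 for Wy-14643 by the first probe (adjusted p = 0.0507, with the block 0.0184) and by 0.36 ± 0.12 by the second (adjusted p = 0.0125). For clofibrate no time was called, and the mean difference of the first probe was -0.09 ± 0.10, the only negative one among the probes tested there.

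**Figure D3:**
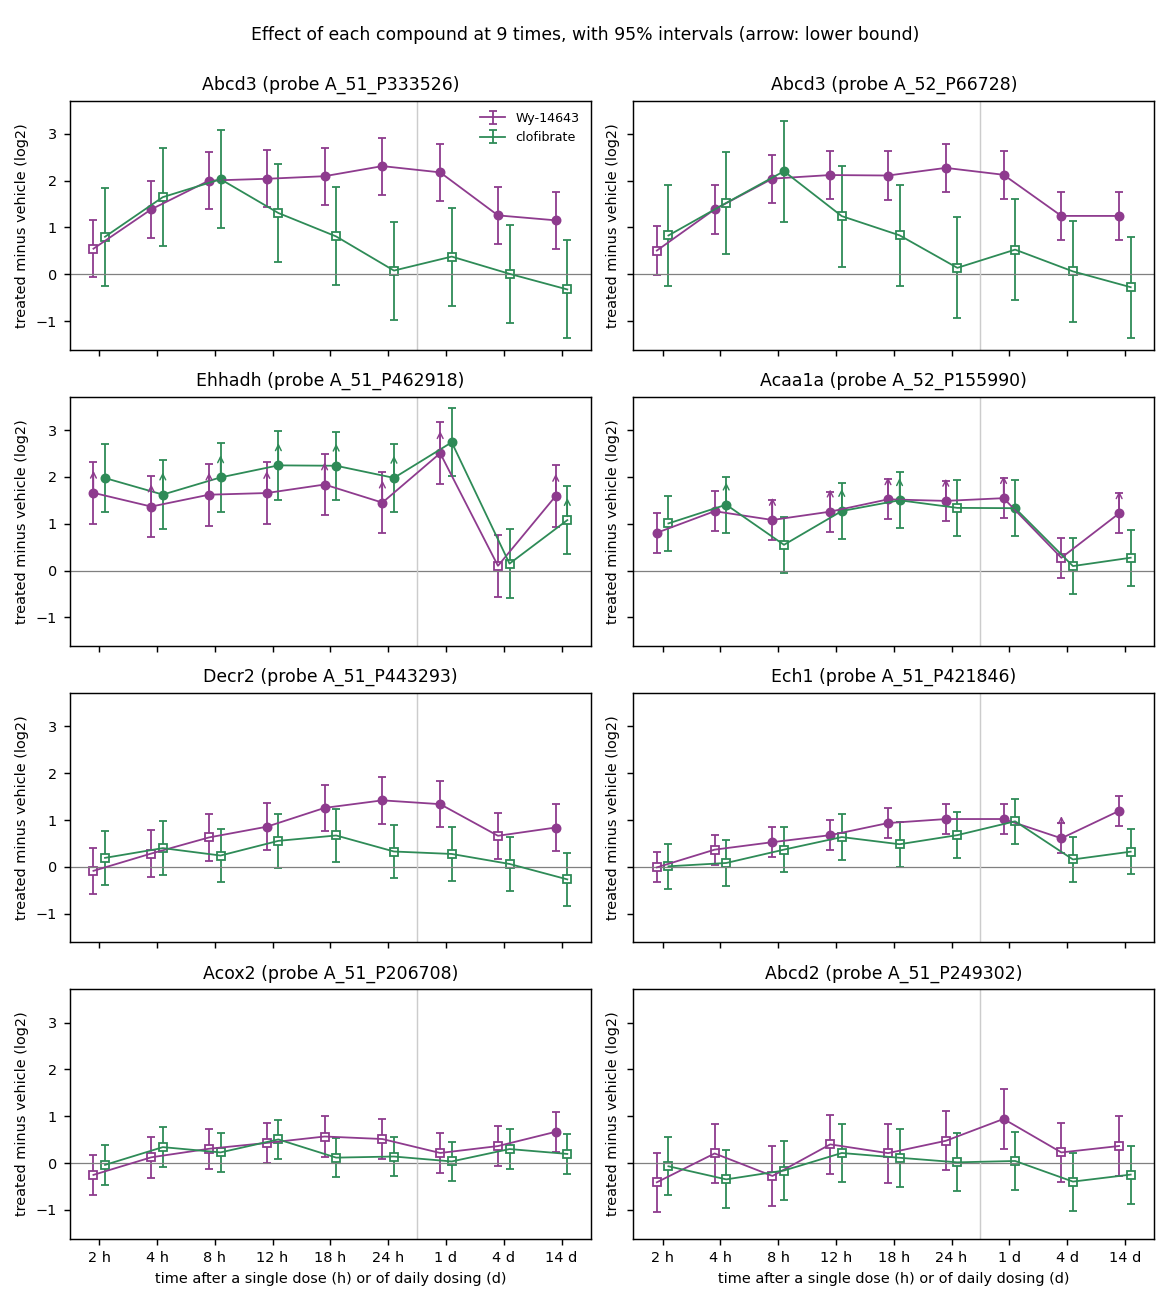
Treated minus vehicle difference (log2) at each time with 95% intervals for 8 probes of 7 genes, with Wy-14643 and clofibrate side by side; filled circles were called, open squares were not, and arrows mark lower bounds. Abcd3 differs by 2.00 and 2.03 at 8 h and by 2.31 and 0.08 at 24 h for Wy-14643 and clofibrate.

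Whether the size of the effect differed between the 9 times was tested for each probe. Under Wy-14643 an F test over times called 6 of 10 member probes tested, where 17.2% of all probes were called: both unsaturated Abcd3 probes (adjusted p = 0.0134 and 0.00159), Acaa1a A_52_P155990 (0.0191), Decr2 (0.0113), Ech1 (0.00114) and Ehhadh (0.0192). Under clofibrate Ehhadh was called (adjusted p = 0.0326), 1 of 9 tested, where 2.31% of all probes were. Of the 6 Wy-14643 calls, 5 were lost without treated replicate 2, 4 without treated replicate 1, 3 without vehicle replicate 2, 2 without treated replicate 3 and 1 without vehicle replicate 3, and only Abcd3 A_52_P66728 was called in all these settings (limma, highest adjusted p = 0.0437). For clofibrate, leaving out 1 treated replicate (whichever of the 3) or vehicle replicate 2 ended the Ehhadh call (limma, adjusted p up to 0.35). Ehhadh and Acaa1a had their lowest effects at 4 days, where the vehicle arrays were close to the ceiling that most treated arrays had reached. Ehhadh was saturated on all 27 treated arrays of the Wy-14643 arm and on 25 of 27 in the clofibrate arm. Acaa1a A_52_P155990 was saturated on 23 of 27 treated arrays of the Wy-14643 arm. Their F tests mostly set ceiling values against vehicle values, so they could not show whether the response itself changed with time. For Decr2 the effect ran between -0.09 at 2 h and 1.42 at 24 h, and for Ech1 between -0.01 at 2 h and 1.20 at 14 days.

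Vehicle livers themselves were compared over the first day and between 4 and 14 days. Over 2 to 24 h limma's F test called 0 of 13 member probes in the Wy-14643 arm and 0 of 11 in the clofibrate arm, where 23.9% and 8.82% of all probes were called, with 0 and 2 members at an unadjusted p under 0.05. The lowest adjusted p were 0.267 for Decr2 and 0.110 for Acox2. A change at the ceiling cannot be seen, so the test could not decide for all of these probes. Of the 27 vehicle arrays of the Wy-14643 arm, 25 were saturated for Acaa1b and 19 for Abcd3 A_52_P394395. For Acaa1a A_52_P423183 it was 15 and for Hsd17b4 7, and in the clofibrate arm 14, 16 and 9 for the last 3 probes. In a comparison added after the values were seen, Ehhadh was higher in vehicle livers of the Wy-14643 arm at 4 days than at 14 days, at means of 15.87 and 14.50 (1.37 ± 0.33, adjusted p = 0.0343), and so was Acaa1a A_52_P155990 (0.83 ± 0.21, adjusted p = 0.0466), where 0.661% of all probes were higher. In the clofibrate arm without that array of 14 days the Ehhadh means were 15.90 and 14.34 (1.56 ± 0.37, adjusted p = 0.151), not called, where 0.0424% were. Abcd3 differed by -0.02 ± 0.30 in the Wy-14643 arm.

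The compounds share the dose and the times, so their effects were compared directly as Wy-14643 effect minus clofibrate effect. For the mean over times 4 of 12 member probes tested were higher with Wy-14643 and 0 lower, where 7.12% of all probes were higher and 9.98% lower. Abcd3 differed by 0.91 (95% interval 0.51 to 1.32, limma, adjusted p = 0.000518) and 0.89 (0.48 to 1.29, adjusted p = 0.000684) by its 2 unsaturated probes, Decr2 by 0.53 (0.27 to 0.78, adjusted p = 0.00132) and Ech1 by 0.29 (0.10 to 0.48, adjusted p = 0.0245). Ech1 had 8 of 27 Wy-14643 and 9 of 27 clofibrate arrays at the ceiling, and 0 and 2 of their vehicle arrays. Its vehicle arrays had a median of 14.80 in the Wy-14643 arm and 15.15 in the clofibrate arm, which had less room below the ceiling. The interval for Ech1 therefore does not bound the difference. The Ech1 difference lost its call in 5 alternative settings, with values of 0.23 to 0.41 and adjusted p up to 0.169 over all of them. Of 15 mean comparisons 3 could not be tested.

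For the other members a difference between the compounds was not detected, and for the probes below the ceiling the intervals say how large it could be. For Acox2 it was 0.12 (-0.08 to 0.32). For Abcd2 it was 0.33 (0.03 to 0.63, adjusted p = 0.122, with the block 0.044). For Acaa1a A_52_P155990 it was 0.19 (-0.06 to 0.43), for Ehhadh -0.25 (-0.58 to 0.08) and for Hsd17b4 -0.06 (-0.21 to 0.08), and the ceiling keeps these intervals from bounding the difference. At single times 2 of 99 tested probe comparisons were called, both of Abcd3 at 24 h (2.23 and 2.14, adjusted p = 0.033 and 0.0424), where 1.34% of all probes were higher at that time, and 0.62% higher and 0.319% lower over the 9 times together. Of the 99, 15 were higher and 1 lower at an unadjusted p under 0.05. The share over all probes at that unadjusted p was not computed. The Abcd3 call at 24 h was lost in 6 alternative settings, among them each one without a vehicle replicate, with values of 2.02 to 2.57 and 1.86 to 2.47. With the block, both Abcd3 probes were called at 18 h, 24 h, 1 day, 4 days and 14 days, Decr2 at 24 h, 1 day and 14 days, and Ech1 at 14 days.

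**Figure D4:**
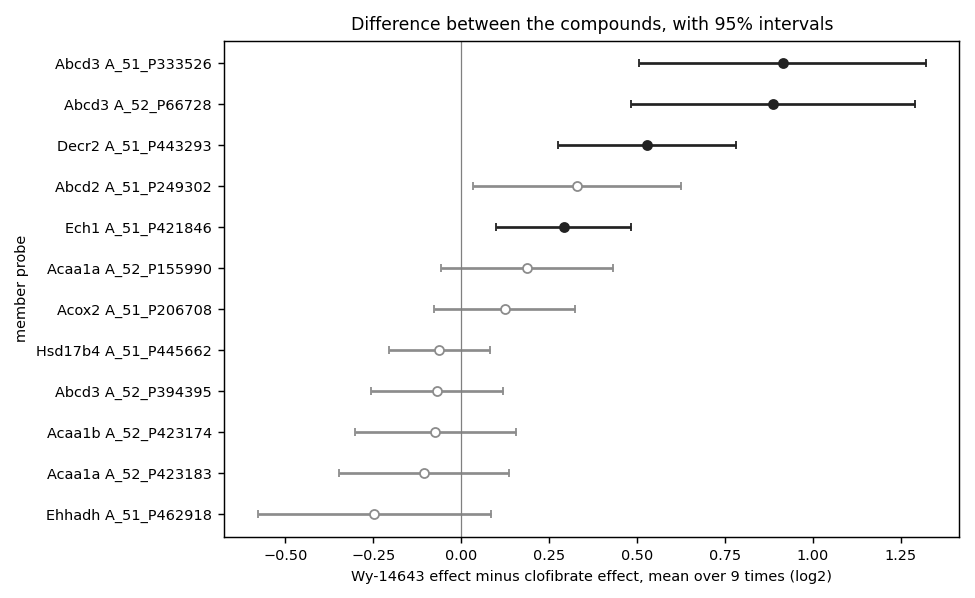
Wy-14643 effect minus clofibrate effect (log2, mean over 9 times) with 95% intervals for the 12 member probes tested; filled points were called. The unsaturated Abcd3 probes lie at 0.91 and 0.89, Decr2 at 0.53, Ech1 at 0.29 and Ehhadh at -0.25.

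Of a list of 21 other genes of peroxisomal fatty acid metabolism, 19 had values and 16 could be tested for the mean effect, of which 9 were higher and 4 lower with Wy-14643 (median 0.35), and 6 higher and 0 lower with clofibrate (median 0.11). Of all probes tested, 20.1% were higher and 34.9% lower with Wy-14643, and 3.14% higher and 1.92% lower with clofibrate. The highest were Crat, the carnitine acetyltransferase, at 2.62 ± 0.08 for Wy-14643 and 1.07 ± 0.11 for clofibrate, and the acyl-CoA thioesterases Acot4 (2.03 ± 0.12 and 0.83 ± 0.13) and Acot8 (1.67 ± 0.04 and 0.68 ± 0.06), all called in both arms. The lowest called with Wy-14643 were Acox3, a branched-chain oxidase (-0.35 ± 0.05), the enoyl-CoA reductase Pecr (-0.28 ± 0.05, 43 of 54 arrays saturated) and the CoA hydrolase Nudt7 (-0.23 ± 0.08, 15 of 54 saturated). The fatty acid transporter Slc27a2, named after its value was seen, was also called (-0.11 ± 0.04), with 52 of 54 arrays saturated, so Acox3 was the only one of the 4 lower that never reached the ceiling. In clofibrate livers these differed by -0.11 ± 0.05, -0.04 ± 0.05 and -0.06 ± 0.11 and were not called.

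Most mitochondrial beta-oxidation genes were higher as well. Of 13, 11 were tested with Wy-14643, of which 10 were higher and Echs1 lower (-0.13 ± 0.05), with a median of 0.78, and 7 of 12 were higher with clofibrate, with a median of 0.33. The shares of all probes called higher were 20.1% and 3.14%. Decr1, the mitochondrial counterpart of Decr2, differed by 1.57 ± 0.08 for Wy-14643 and 0.72 ± 0.07 for clofibrate. Hadha, whose protein catalyses the steps that Ehhadh catalyses in peroxisomes, differed by 1.10 ± 0.07 and 0.65 ± 0.09. The thiolase Acaa2 was saturated on all 54 arrays of the Wy-14643 arm and not tested there.

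The genes outside the 9 whose 18 effects (2 compounds at 9 times) followed the median effect of the members' brightest probes most closely were Hadha (Pearson r = 0.888), Hadhb (0.867), Acadl (0.848), Dnaic1 (0.838) and Psap (0.827), of 8455 genes ranked. For Abcd3, Acaa1a and Acaa1b the brightest probe was saturated on 84, 108 and 104 of the 108 arrays, so the median leaves out the Abcd3 and Acaa1a probes that could be followed. The points share vehicle arrays, animals and scanner ceiling, so the values are descriptive. Hadha, Hadhb and Acadl encode mitochondrial beta-oxidation enzymes, Dnaic1 a dynein intermediate chain and Psap the precursor of the saposins. Dnaic1 differed most of the 5, by 2.28 for Wy-14643 and 1.45 for clofibrate in the mean over times.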

How the data were processed

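Liver RNA was labelled with Cy3 per the labels' protocols. The deposited values are log2 signals, 1 column per array, as the value table of the series holds them; the authors' scanner software, background correction and normalization are not given in the sources used here. Of 41189 entries, 93 controls were left out, and 51.48% of the values were empty. Probes were named from the platform annotation (32609 with 1 symbol, 44 with several, 8443 with none), and none was named from several.

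From there, each array was shifted to a common 75th percentile over the 12210 probes with a value on all arrays. A value within 0.05 of the array's ceiling (its commonest value above 15.2) was called saturated. Comparisons at a single time with all arrays of both groups saturated were not tested. In a mean over times such a time entered with its values at the ceiling, which carry no information on the effect. Only a probe saturated in both groups at every time was left out of the mean. limma 3.58.1 (R 4.3.3, files read with data.table at version 1.17.8) was fitted per probe, as a mean for each group, with eBayes moderation along a trend in variance, within an arm or, for compound differences, over 108 arrays. Every adjusted p is limma's with Benjamini-Hochberg adjustment over all probes tested. The p-values measure the spread between arrays, which the series calls biological replicates. In a saturated group, however, the spread is that of the array ceilings after scaling and not that of the transcript. The SEs and p-values of probes with saturated groups rest in part on that spread. Figures were drawn with matplotlib 3.10.9 (Python 3.11.15).

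Replicate numbers come from the labels, which give them no meaning. Deviations of same-numbered vehicle arrays of both arms correlated at 0.65, 0.56 and 0.82 at 1 day, and as low as -0.23 for replicate 2 at 8 h. The compound comparison treated the vehicle groups of the arms as independent, which was not tested. The counts that follow are for treated against vehicle arrays. All 3 correlations of same-numbered deviations were above 0.1 in 16 of 18 comparisons (range -0.1344 to 0.8793, with clofibrate at 8 h and 1 day the exceptions), so fits with the number as a block are given where they change a call.

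The members, the gene lists and the tests were chosen with earlier results of these data known. The text names all members, the 3 highest and 3 lowest called genes of the peroxisomal list, 3 mitochondrial counterparts (Decr1, Acaa2, Hadha) beside Echs1, which was named after its value was seen, and the 5 genes with the most similar effects. The single AGGNCA search was added to the planned motifs. The alternatives were other scalings, 1 probe per gene, other lead probes (a gene's lead probe is its brightest with values on all arrays), no variance trend, the block, each replicate left out, the nearly identical 14-day vehicle array left out and a filter on low values; 3 were added after the values were seen (the lead probe with the fewest saturated arrays, vehicle replicate 3 at 1 day left out, and the mean without 4 days).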

Additional observations from a re-analysis of the deposited data

Results flagged for a closer look

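For Wy-14643, limma's F test over 9 times called a difference between times for 6 of 10 member probes tested, where 17.2% of all probes were called. Of these calls, 5 were lost without treated replicate 2 and 4 without treated replicate 1. Highest minus lowest effect was 1.765 and 1.767 (log2) for the Abcd3 probes A_51_P333526 and A_52_P66728, 1.274 for Acaa1a A_52_P155990, 1.506 for Decr2, 1.208 for Ech1 and 2.406 for Ehhadh. For clofibrate the same test called Ehhadh, with 2.592, 1 of 9 tested, where 2.31% of all probes were called. That call was lost in 4 settings that each left out 1 replicate. For Ehhadh in both arms and Acaa1a in the Wy-14643 arm the highest effect was at 1 day, where vehicle replicate 3 read low. Their lowest was at 4 days, where vehicle arrays were near the ceiling. Ehhadh was saturated on all 27 treated arrays of the Wy-14643 arm and on 25 of 27 in the clofibrate arm. Acaa1a A_52_P155990 was saturated on 23 of 27 treated arrays of the Wy-14643 arm. In these cases the test mostly set ceiling values against vehicle values, so it could not show whether the response itself changed with time.

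A direct test of the compounds called 4 of 12 member probes higher with Wy-14643 in the mean, where 7.12% of all probes were. At single times it called 2 of 99 probe comparisons higher, where 0.62% of all were. The Abcd3 calls at 24 h were each lost in 6 alternative settings, and the Ech1 call in 5. Wy-14643 minus clofibrate was 2.232 and 2.136 (log2) at 24 h and 0.9145 and 0.8868 in the mean over times for the Abcd3 probes A_51_P333526 and A_52_P66728, 0.528 in the mean for Decr2 and 0.2922 for Ech1.

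The Abcd3 probe A_52_P536896, used in no comparison, carried a value on 12 arrays of Wy-14643 livers and on 0 vehicle arrays. Its values were low, at 6.45 to 7.94, and it was empty in Wy-14643 livers at 8 h, 18 h, 1 day, 4 days and 14 days. Of all values 51.48% were empty, and the share of probes with values in treated livers only was not computed. An effect of the compound cannot be read from this pattern.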

How the results depend on the processing

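Counts below are of lead probes, 1 per gene. With the values as deposited, the effect of Wy-14643 over time was called for 6 genes instead of 3, vehicle livers of the Wy-14643 arm over the first day for 2 instead of 0, the mean effect of clofibrate for 5 instead of 3 and the compounds at single times for 2 instead of 0. With all listed probes setting the scale, vehicle livers of the clofibrate arm had 2 instead of 0 and the compounds at single times 1. With quantile normalization the same vehicle count was 2 and the mean difference of the compounds 5 instead of 2. With lead probes that are never saturated, which 4 genes have, the mean effect was called for 3 instead of 5 with Wy-14643 and 1 instead of 3 with clofibrate, clofibrate had 1 call at single times instead of 7 and 0 over time instead of 1, and the compounds 1 at single times. With the replicate block, clofibrate had 2 over time and the compounds 4 at single times. With the least saturated lead probes, Wy-14643 had 38 calls at single times instead of 22 and 5 over time, clofibrate 12 at single times and 5 for the mean, and the compounds 1 at single times. Without 4 days the compounds differed in the mean for 1. Leaving out 1 replicate gave 15 to 22 and 4 to 8 calls at single times for Wy-14643 and clofibrate, 0 to 3 and 0 to 1 over time, 5 to 5 and 2 to 3 for the mean, 0 to 0 and 0 to 1 in vehicle livers, and 1 to 2 and 0 to 1 for the compounds in the mean and at single times. With quantile normalization Hsd17b4 (A_51_P445662) at 4 h of Wy-14643 was 0.32, not -0.02, and Abcd3 A_52_P394395 in the Wy-14643 mean 0.0714, not -0.02; both were called under quantile normalization (limma, adjusted p = 0.0021 and 0.0367) and neither under the 75th percentile. The causes of these changes were not tested.

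Over 238 differences and 19 alternatives, 3458 of 3621 values kept their call, 86 lost it, 75 gained it and 2 turned. The median effect over all probes was as high as 0.53 (Wy-14643, 1 day) with the values as deposited and as low as -0.45 (clofibrate, 8 h) with all listed probes. The vehicle test over the first day could not be fitted with the block. Saturation limits what can be measured for Acaa1a, Acaa1b, Ehhadh, Hsd17b4, Ech1 and the brightest Abcd3 probe.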
